A study of Mus musculus and Rattus norvegicus with 4 samples.

Results

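MEF2A peaks that lay away from protein-coding genes but at long noncoding RNA (lncRNA) genes were examined in C2C12, a line of mouse myoblasts that can form myotubes in culture. The members were chosen by position alone. A peak was taken when it lay more than 5 kb from every protein-coding gene span and overlapped or lay within 5 kb of a span that RefSeq annotates as lncRNA on GRCm38.p6 (mm10). This rule took 360 of the 2797 C2C12 peaks, or 12.9% (exact binomial 95% interval 11.7 to 14.2%, counting error only). The peaks lay at 328 of 9395 lncRNA genes that had any stretch of their span or its 5 kb flanks more than 5 kb from a coding span, a share of 3.49%. Another 912 peaks were intergenic by the same distance from coding spans but had no lncRNA within 5 kb, and these served for contrast.

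The series held 4 ChIP-exo libraries, 1 per group. Antibodies to MEF2A and control rabbit IgG were each used once in C2C12 cells and once in primary rat cardiomyocytes. The C2C12 cells, labelled myoblast, had spent 48 h in differentiation medium with 2% horse serum. ChIP-exo trims immunoprecipitated DNA with an exonuclease, so that the sequenced ends fall near the borders of the bound protein. The C2C12 MEF2A peak list supplied every value below, and the rat list, which has another genome build, entered only the total of 4665 peaks in the series. No expression was measured in these files, so neither the cell type nor the activity of any lncRNA could be checked against RNA. With 1 library and no replicates, no test over samples was possible, and peaks are not replicates. The values therefore describe this library, and no difference below was tested.

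MEF2A belongs to the myocyte enhancer factor 2 family of MADS-box transcription factors, which bind an A/T-rich element and act with myogenic factors at muscle genes. lncRNAs are transcribed without coding for a protein. Some are abundant nuclear RNAs, some are precursors of microRNAs, and many are known only as transcript models. Intergenic enhancers can themselves be transcribed, so a binding site inside a lncRNA span may act on that RNA, on a neighbouring coding gene or on neither, and position alone does not tell these apart.

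A total of 14 peaks overlapped the promoter windows of 13 lncRNAs, where RefSeq (GRCm38.p6) gives the sequence. A window runs from 250 bases before to 50 bases after an annotated start. The windows of 4 of them are shown as examples of a motif match inside a peak, the MEF2 consensus in Malat1 and TGANTCA in the other 3. A730020M07Rik and Gm19705 also had matches inside a peak and are described without their sequence. They are Malat1 (chr19:5802623-5802922, minus strand), Gm41208 (chr14:73014119-73014418, plus strand), Gm32011 (chr15:31091970-31092269, plus strand) and Gm34026 (chr8:106399795-106400094, plus strand). Each is written 5′ to 3′ on the strand of the gene, and capitals mark matches to the motifs searched for.
Malat1: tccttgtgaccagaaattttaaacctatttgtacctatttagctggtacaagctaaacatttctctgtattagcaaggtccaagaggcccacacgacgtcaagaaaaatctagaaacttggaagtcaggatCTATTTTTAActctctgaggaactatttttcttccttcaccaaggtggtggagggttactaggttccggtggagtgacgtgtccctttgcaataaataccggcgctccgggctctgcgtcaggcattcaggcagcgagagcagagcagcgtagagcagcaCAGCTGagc
Gm41208: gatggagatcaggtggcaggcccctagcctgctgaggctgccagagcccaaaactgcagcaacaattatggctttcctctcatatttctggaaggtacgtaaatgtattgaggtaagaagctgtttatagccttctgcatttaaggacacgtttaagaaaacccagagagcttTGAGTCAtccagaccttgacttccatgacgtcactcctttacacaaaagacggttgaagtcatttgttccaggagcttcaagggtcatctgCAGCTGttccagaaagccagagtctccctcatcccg
Gm32011: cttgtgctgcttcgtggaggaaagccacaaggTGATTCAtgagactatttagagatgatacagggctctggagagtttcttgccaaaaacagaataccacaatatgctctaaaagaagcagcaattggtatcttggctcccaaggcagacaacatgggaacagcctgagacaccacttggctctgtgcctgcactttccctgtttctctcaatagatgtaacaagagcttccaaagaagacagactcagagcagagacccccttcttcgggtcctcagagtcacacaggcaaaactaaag
Gm34026: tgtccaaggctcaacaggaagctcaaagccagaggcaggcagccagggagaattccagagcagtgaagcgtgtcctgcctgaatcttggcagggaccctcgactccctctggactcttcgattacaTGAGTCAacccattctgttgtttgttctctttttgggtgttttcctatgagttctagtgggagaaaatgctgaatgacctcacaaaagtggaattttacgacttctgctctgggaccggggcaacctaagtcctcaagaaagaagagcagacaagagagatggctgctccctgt

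The Malat1 window held the only match to the MEF2 consensus among the 13 windows. The match, CTATTTTTAA, lay 119 to 110 bases before the start and inside a peak of score 161 that ran from 202 bases before to 109 bases after the start. The score is the authors' value per peak, higher for stronger peaks, and begins just above 50 in this list. A MEF2 consensus match stood in 7.69% of the 13 windows (1 of 13), against 14.0% of the 86 promoter windows touched by the other C2C12 peaks (12 of 86) and 3.19% of all 32851 tabled promoters. The letters CTANNNNTAG, with a free centre, stood in 0 of the 13 windows, against 10 of the 86 (11.6%). They stood in 3.69% of all tabled promoters and 4.08% of the lncRNA promoters, shares at which 13 windows need hold none.

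The letters TGANTCA form the core element bound by AP-1 (FOS and JUN) factors when the centre is C or G. With any centre they stood in 6 of the 13 windows (46.2%), against 7 of 86 (8.14%) at the other peaks. Their share was 7.81% of all tabled promoters and 9.31% of the lncRNA promoters. The centre was G or C at Gm41208, Gm34026 and Mannr, and A or T at Gm32011, Gm6634 and A730020M07Rik. In 4 of these 6 the match lay wholly inside the peak. Gm41208 carried TGAGTCA 77 to 71 bases before its start, inside a peak of score 673. Gm32011 carried TGATTCA 218 to 212 bases before its start, inside a peak of score 301, and a second peak of score 96.8 ran from 4 bases before to 177 bases after the start. Gm34026 carried TGAGTCA 124 to 118 bases before its start, inside a peak of score 69.2.

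The fourth such window was that of A730020M07Rik, with TGAATCA in a peak of score 84.0. In the windows of Gm6634 (TGAATCA) and Mannr (TGACTCA) the match lay outside the peak, whose scores were 95.4 and 54.2. CAGCTG, an E-box letter string bound by MyoD-type factors, stood in 4 of the 13 windows (30.8%), against 14 of 86 at the other peaks (16.3%). Its share was 16.3% of all tabled promoters and 17.7% of the lncRNA promoters. CATTCC, the core of the TEAD element, stood in 1 of 13 (7.69%), against 17 of 86 (19.8%), 14.7% of all tabled promoters and 16.6% of the lncRNA promoters. All searches covered both strands. The single TGANTCA match of Gm6634 shared 2 bases with a CAGCTG match. With 13 windows, 1 window more or less moves each share by several percentage points, and a match describes letters, not a bound site.

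**Figure D1:**
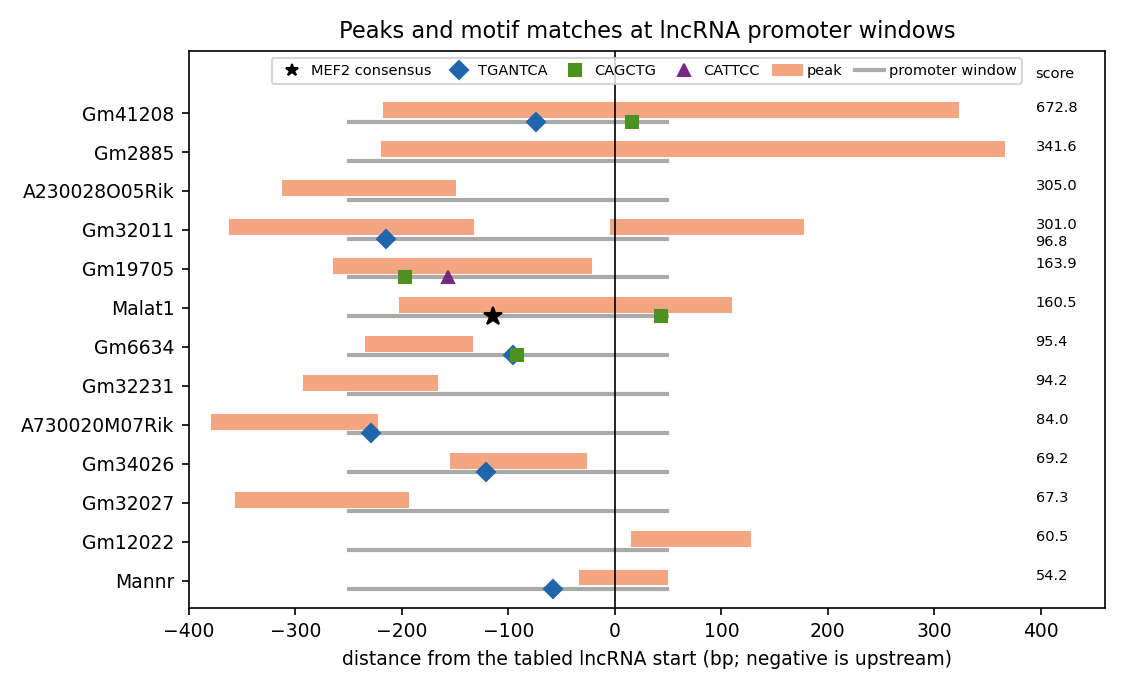
Each row is a lncRNA with a peak over its promoter window (grey line), ordered by score, with distance from the annotated start in base pairs on the x axis. Orange boxes are peaks and symbols are motif matches. The star at Malat1 is the single MEF2 consensus match, and TGANTCA diamonds occur in 6 of the 13 windows.

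Peaks overlapped promoter windows at lncRNAs across a range of scores. Gm41208, whose nearest coding gene 11.0 kb away is Cysltr2 (a leukotriene receptor), had the highest score, 673, and its peak covered the start. Gm2885 had a score of 342, from 219 bases before to 365 bases after its start, and none of the elements searched for was found in its window. The peak of A230028O05Rik (score 305) ended 150 bases before the start. Gm19705 had a peak of score 164 ending 22 bases before its start, and its window held CAGCTG and, on the opposite strand, CATTCC inside that peak. Gm32231 (score 94.2), Gm32027 (67.3) and Gm12022 (60.5) held none of the 5 motifs.

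Malat1 had the largest group of peaks, and its neighbour Neat1 had several. Both are abundant, nuclear-retained RNAs encoded side by side on chromosome 19. Malat1 RNA localises to nuclear speckles, and Neat1 RNA is the scaffold of paraspeckles. Malat1 (5795690 to 5802672) had 9 peaks, the most of any lncRNA, and Neat1 (5824708 to 5845480) had 4.

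Of the 9 Malat1 peaks, 6 overlapped the span, and they scored 55.5, 68.5, 75.2, 89.0, 52.1 and 161 in order of rising coordinate. All 6 lay between positions 5800164 and 5802874, toward the start of the gene, which is transcribed toward lower coordinates. The last of them, over the promoter, was the highest. Past the other end of the gene a pair scored 59.3 and 112, at 815 and 352 bp from the span. The ninth peak, 869 bp before the start, scored 72.1.

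At Neat1 the scores were 50.5, 56.2, 84.5 and 139 in order of rising coordinate. The last 3 lay within 2.35 kb of each other, and the highest overlapped the higher-coordinate end of the span, at 5845065 to 5845506, which is 5.47 kb from the coding gene Frmd8. Another 2 intergenic peaks of the neighbourhood, with scores of 67.1 and 129.9, lay more than 5 kb from both lncRNAs and were no members. None of the 13 Malat1 and Neat1 peaks reached 200, a score that 57 of the 360 members (15.8%) and 15.2% of all C2C12 peaks reached. Malat1 had more peaks than any other lncRNA gene, while Neat1 shared its number of 4 with Gm31718.

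**Figure D2:**
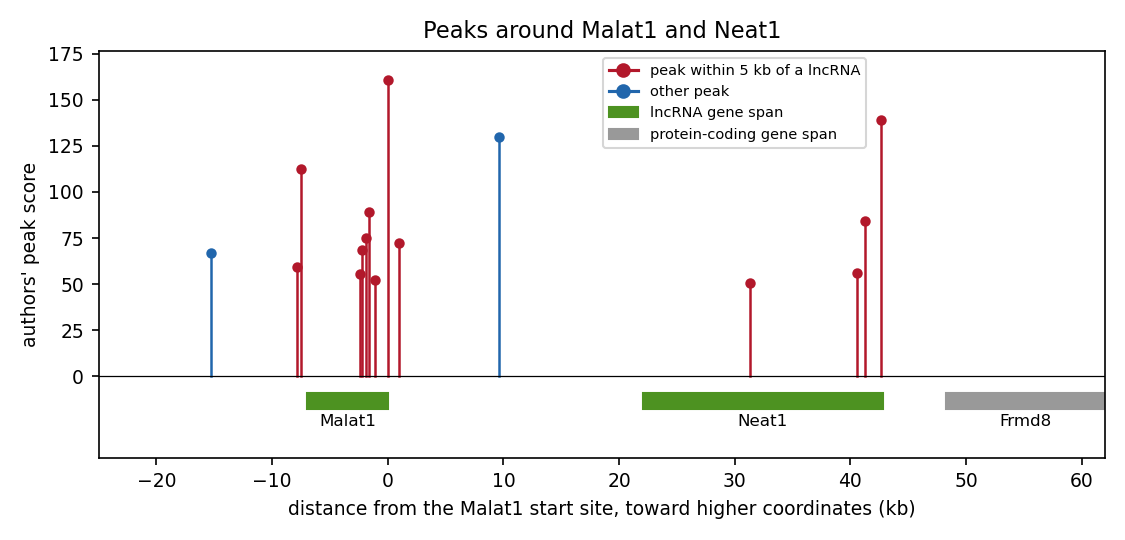
Vertical lines are peak centres around Malat1 and Neat1, with height giving the authors' score, against distance from the Malat1 start in kb. The 9 red peaks at Malat1 gather at both ends of the gene and in its first part, and the highest, 161, stands at the start.

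Mir100hg, the host transcript of Mir100, Mirlet7a-2 and Mir125b-1, had 3 peaks. Its span (chromosome 9, 41376526 to 41615185) covers 239 kb, and the nearest coding span to the strongest peak, Gm40514, was 309.9 kb away. miR-125b and miR-100 are known from myoblast and tumour cell studies, and the let-7 family restrains proliferation programmes. The mature sequences that RefSeq (GRCm38.p6) lists are shown because these are products of the named miRNA host gene with most peaks among the members. For Mirlet7a-2 only the 3p product is listed, so the 5p product of that gene and its seed are not shown. Capitals mark the seed, bases 2 to 8, which pairs with target RNAs.
mmu-miR-100-5p: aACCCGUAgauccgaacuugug
mmu-miR-100-3p: aCAAGCUUgugucuauagguau
mmu-let-7a-2-3p: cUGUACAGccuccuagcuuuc
mmu-miR-125b-5p: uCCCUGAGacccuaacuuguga
mmu-miR-125b-1-3p: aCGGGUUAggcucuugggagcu
The seeds of these 5 sequences all differ.

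The strongest Mir100hg peak, at 41595677 to 41596145, scored 548 and ranked 95 of 2797. It lay 13.7 kb from Mir125b-1, on the higher-coordinate side. The second peak scored 68.5 and lay 5.996 kb from Mirlet7a-2 and 11.3 kb from Mir100. The remaining peak scored 53.9 at 41480059 to 41480177. The strongest was thus the one nearest to Mir125b-1, and the other 2 scored below the median of all C2C12 peaks, 77.0.

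**Figure D3:**
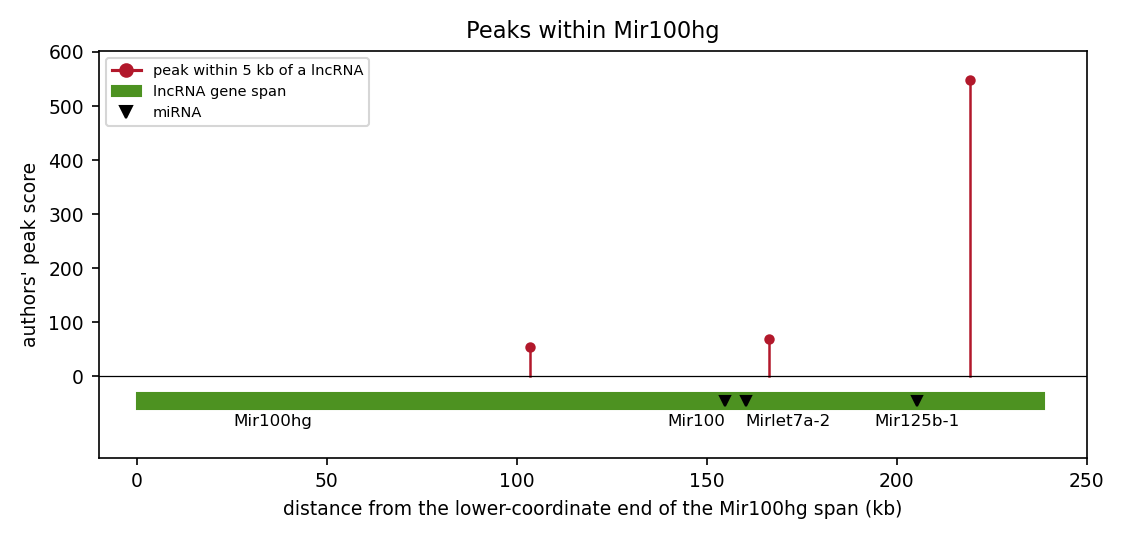
The 3 peaks inside the Mir100hg span are drawn at their distance in kb from the end of the span with the lower coordinate, with height giving the authors' score, and triangles mark the hosted miRNAs. The peak of score 548 lies past Mir125b-1, while the others scored 53.9 and 68.5.

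Other miRNA genes lay inside or near a lncRNA gene with a member peak. Mir31 lay inside the lncRNA gene Gm49890, 17.7 kb from a peak of score 761 at 88928404 to 88929012 on chromosome 4. The nearest coding gene to that peak was the interferon gene Ifne, 48.2 kb away. Mir670 lay 4.32 kb from a peak of score 62.4 that fell 619 bp outside the span of its host Mir670hg. Mir129-1 lay 9.37 kb from a peak of score 95.9 inside Lnclep, a lncRNA next to the leptin gene Lep (28.0 kb). The hairpin of Mir129-1 itself lay outside the Lnclep span. A peak of score 138 overlapped the annotated hairpin span of Mir6236, inside Gm39429.

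The mature products of Mir31 and Mir670 are shown with their seeds in capitals, since a peak lay within 20 kb of each gene. The seeds of mmu-miR-670-5p and mmu-miR-125b-5p share the letters CCCUGA at shifted positions, and no pair among these 9 sequences has the same seed.
mmu-miR-31-5p: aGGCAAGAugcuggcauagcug
mmu-miR-31-3p: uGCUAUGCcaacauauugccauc
mmu-miR-670-5p: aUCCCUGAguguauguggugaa
mmu-miR-670-3p: uUUCCUCAuauccauucaggagugu

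Several lncRNAs known from muscle and chromatin studies were among the members. Of 80 listed symbols 56 were found as lncRNA in the table, and 6 had a member peak (10.7%; 12.5% of the 48 that could have had one), against 3.49% of all 9395 lncRNA genes that could have had one. The 6 were Malat1, Neat1, Mir100hg, Morrbid, Rmst and Jpx. The list was drawn up with earlier results of these data known, so the share is no independent evidence.

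Morrbid, a lncRNA that represses the proapoptotic gene Bcl2l11 in myeloid cells, had peaks of 74.3 and 52.0, at 176.2 and 132.7 kb from Bcl2l11. Rmst, a neural lncRNA, had a peak of 67.9, and Jpx, an activator of Xist in X inactivation, a peak of 60.7. All 4 scores lay below the members' median. The imprinted lncRNAs Meg3, Rian and Mirg of the Dlk1-Dio3 region, which includes a large miRNA cluster, had no peak nearby. The nearest peak to Meg3 was 603.9 kb away. For H19 the distance was 75.7 kb, and for Xist it was 13.0 kb, to the same peak as in Jpx.

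The strongest members lay mostly at lncRNA genes that carry a model or clone number as their symbol, as most lncRNA genes do. Of all 9395 lncRNA genes that could have had a member peak, 79.6% had numbered Gm symbols and 14.8% RIKEN clone symbols. The highest, with a score of 2067 and rank 6 of 2797, was inside Gm41907 on chromosome 1 (86470215 to 86471075), between Tex44 at 42.2 kb and Ptma at 55.5 kb. Ptma encodes prothymosin alpha. The second, with a score of 1582 and rank 12 (chromosome 1, 134098990 to 134099621), was 3.81 kb from Gm32039. It lay between Btg2, an antiproliferative early gene at 19.8 kb, and Chit1, a chitinase gene at 11.6 kb.

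The third, with a score of 1180.05 and rank 26, was inside A230028O05Rik on chromosome 16 (25061587 to 25062144), 2.23 kb past its start. Its coding neighbours were Lpp, a focal adhesion LIM protein gene at 69.0 kb, and Tprg at 224.7 kb. A230028O05Rik also had the promoter peak of 305 and another of 72.3. Gm39166 had the fourth, with a score of 1020.2, at 8.88 kb from the coding gene Dlc1. The next score was 888.

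The others of the 30 highest members scored from 366.5 to 887.5. Gm35171 (888) lay next to Pdcl3, and Gm11430 (868) next to Wfdc17 and the chemokine gene Ccl4. Gm13986 (859) was 107.3 kb from Thbs1, which encodes the matrix protein thrombospondin. Gm52047 (682) was next to Gfod1. Gm46514 (645) was 7.16 kb from Ccn4, a matricellular signalling gene. 5430437J10Rik (639) was 293.2 kb from Ptger4, a prostaglandin receptor gene. Gm36235 (635) lay 189.6 kb from Trib2 and Gm36819 (490.02) 166.1 kb from Trib1, a pair of pseudokinase genes of the Tribbles family. Gm19299 (484) lay between Tpm1, a tropomyosin gene, at 90.7 kb and Tln2, a talin gene, at 76.2 kb.

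The highest 30 also included peaks at Gm41616, Gm52610, Banf2os, Gm34061, Gm34256, Gm33753, Gm36409, Gm31718, Gm33517, Gm34471, Gm34907, Gm34297, Gm19705 and Gm40998. Their nearest coding genes ran from Zfp697 at 7.11 kb to Adamts16 at 534.1 kb. Gm34061 lay between the Krüppel-like factor genes Klf5 (294.5 kb) and Klf12 (257.9 kb). The strong peaks were thus found both close to coding genes and far from them.

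Most of these lncRNA genes had 1 peak. Of the 328 genes 280 had 1 member peak, 35 had 2, 10 had 3, 2 had 4 and Malat1 had 9. The 37 member peaks with 2 or more lncRNA genes within 5 kb were counted for each of those genes. Gm31718, a gene of 104 kb on chromosome 8, had 4 peaks with scores of 433, 66.8, 53.5 and 52.7. Gm13986 (254 kb) had 3 peaks of 859, 130.02 and 72.7. Gm13481, in the long interval between Zeb2 and Acvr2a, had 3, of 184, 110.05 and 57.2. In each of these genes the strongest peak stood well above the weakest.

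Shorter genes held several peaks too. Gm33517 had 3 in a run of 0.737 kb, with a top score of 431. Gm29040 (13.0 kb), whose nearest coding gene is Fhl2, a LIM domain cofactor of muscle, had 3 with scores of 134, 99.3 and 61.7. Gm40388 (336), Gm34295 (264), Gm40327 (119) and Gm20139 (87.5), given here with their top scores, also had 3 each. Among genes with 2 peaks, those with the highest scores were Gm32039 and Gm39166.

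The genes with a member peak had longer spans than the remaining lncRNA genes that could have had one. The median span was 17.2 kb (quartiles 6.93 and 47.5 kb) at the 328 genes and 9.11 kb (3.92 and 21.2 kb) at the 9067 others. A longer span offers more sequence in which a peak can fall, and the part of length in this difference was not tested. By symbol, 254 of the 328 had numbered Gm symbols (77.4%, against 79.7% of the others) and 59 had RIKEN clone symbols, against 14.7% of the others. Curated transcripts were listed for 103 of the 328 (31.4%), against 26.9% of all 9395, and the remainder had predicted models alone.

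Most members lay inside a lncRNA span rather than beside it. Inside were 243 of 360 (67.5%, exact 95% interval 62.4 to 72.3%), and the other 117 lay at a median of 2.61 kb. Scores hardly differed between the 2 kinds, with medians of 79.7 inside and 79.6 beside. Peaks inside a span were farther from coding genes, with a median of 69.3 kb (95% interval of the median 56.1 to 95.1 kb) against 34.1 kb (23.6 to 45.6 kb) for those beside one.

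An annotated start was tabled for the lncRNAs nearest to 272 of the members. The centre of 33 peaks lay within 1 kb of the start and that of 107 within 5 kb, with 45 upstream and 62 downstream. Another 161 lay more than 5 kb downstream of the start and 4 more than 5 kb upstream, where the rule leaves little room. The median distance was 7.48 kb (quartiles 2.69 and 20.5 kb). In bins of 1 kb, the highest count, 17, was in the first kilobase upstream, followed by 16 in the first downstream, so the peaks gathered only loosely at starts.

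**Figure D4:**
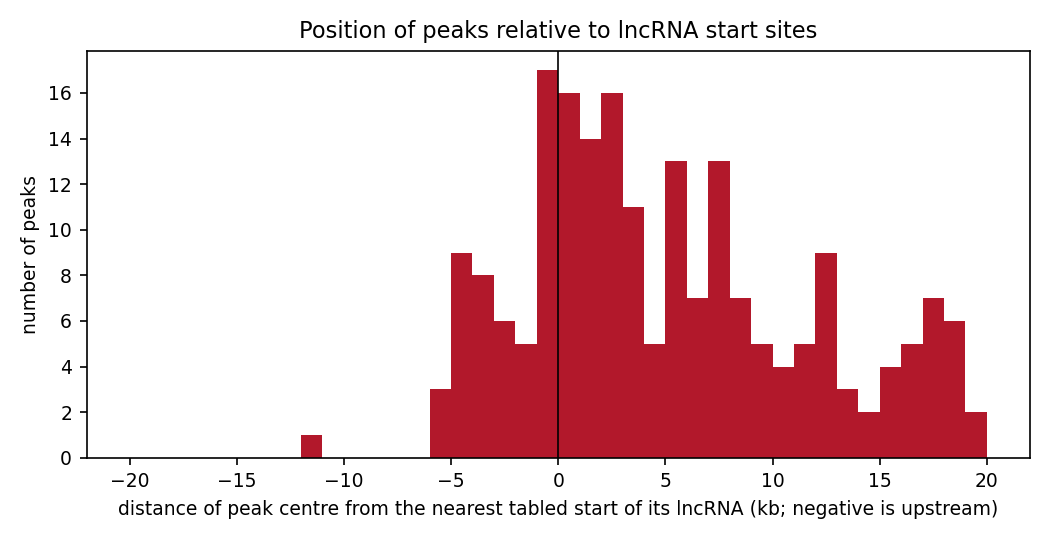
The number of peaks per 1 kb bin is plotted against the distance of the peak centre from the nearest annotated start of its lncRNA, with negative values upstream. The 203 peaks within 20 kb are drawn, with 17 in the first kilobase upstream and 16 in the first downstream; 69 lay farther downstream.

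Scores of the members differed little from those of other C2C12 peaks. Their median width was somewhat larger than that of other intergenic peaks, with overlapping 95% intervals. The median score was 79.7 (95% interval 73.6 to 87.2) at the members and 76.0 (72.3 to 81.6) at the 912 other intergenic peaks, and 77.0 over all 2797 peaks. Scores of 100 or more were held by 135 members (37.5%), 329 other intergenic peaks (36.1%) and 36.8% of all peaks. For scores of 200 or more the shares were 15.8% of members, 13.6% of other intergenic peaks and 15.2% of all. At 500 or more they were 4.72% (17 of 360), 3.18% and 3.93%. The exact binomial interval of each member share includes both of the other values.

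Members had a median width of 151.5 bp (136 to 160 bp), other intergenic peaks 139 bp (132 to 144 bp) and all peaks 144 bp. Wider than 300 bp were 65 members (18.1%, 14.2 to 22.4%), against 13.9% of other intergenic peaks (11.7 to 16.3%) and 15.8% of all peaks. The intervals of members and other intergenic peaks overlapped here too. Wider peaks scored higher, with a Spearman correlation of 0.72 over the 360 members and 0.71 over the 912 other intergenic peaks, as a description over peaks of 1 library that share its depth and background.

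**Figure D5:**
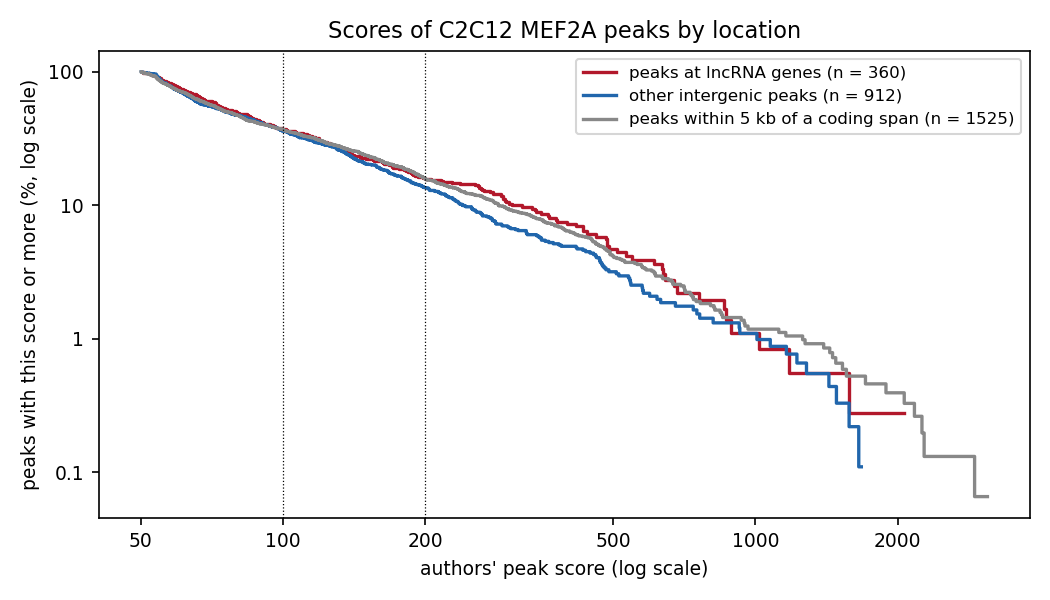
The percentage of peaks with a given score or more is plotted against the authors' score, both on log scales, for peaks at lncRNA genes (red), other intergenic peaks (blue) and peaks within 5 kb of a coding span (grey). At 100, where the first dotted line stands, 37.5% of the red and 36.1% of the blue peaks remain.

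Close neighbours were about as frequent among members as in the whole list. Another peak lay under 1 kb away for 62 members (17.2%, 13.5 to 21.5%), against 16.0% of other intergenic peaks and 15.6% of all peaks. Malat1 and Neat1 supplied 12 of the 62, and without their peaks the share was 14.4%. The 62 members formed 28 runs, the largest of 7 peaks over 3.51 kb at Malat1. Other runs held a strong peak beside a weaker one, as at Gm32039 (1582 and 58.0) and Gm39166 (1020.2 and 68.2).

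Chromosomes differed in how many of their peaks were members. Chromosome 19, which holds Malat1 and Neat1, had 20 of 74 (27.0%), but 7 of 61 (11.5%) without the peaks of these genes, which is below the 12.9% of the whole list. Chromosome Y had 2 of 8, chromosome 17 had 18 of 81 (22.2%), and chromosome 15 had 32 of 166 (19.3%). Chromosome X had 3 of 61 (4.92%) and chromosome 11 had 15 of 182 (8.24%). The number of lncRNA genes per chromosome was not taken into account.

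The coding genes that neighbour the members included several of muscle, adhesion and early response lists. A coding span lay within 100 kb of 236 members (65.6%, against 59.8% of other intergenic peaks), and 196 genes, or 0.896% of 21887, were the nearest one. No sarcomere gene of 72 was among them, and with a share of 0.896% over all coding genes a count of 0 is near the background. Over the full list of peaks, 29 of the 72 (40.3%) were the nearest coding gene within 100 kb, against 1674 of all 21887 coding genes (7.65%). The rule removes peaks within 5 kb of a coding span.

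Costamere and adhesion genes gave 3 of 45 (6.67%), against 0.896% of all coding genes. Over the full list of peaks 20 of the 45 were nearest, where the share of all coding genes was 7.65%. Tln2 (484) was described above. Sspn, which encodes sarcospan of the dystrophin complex, had peaks of 178 and 60.3 inside Gm32838, at 39.2 and 12.6 kb. Anxa1, an annexin of membrane repair, had a pair of 89.5 and 77.5 near 1500015L24Rik. Among myogenic regulators and differentiation genes 2 of 59 were nearest (3.39%), and 17 of the 59 over the full list of peaks. Fbxo32, which encodes the muscle ubiquitin ligase atrogin-1, lay 6.86 kb from a peak of 124 inside Gm36112. Tead1, a transcription factor of muscle promoters, lay 15.8 kb from a peak of 90.9 near Gm40451.

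MAPK, phosphatase and early response genes gave 4 of 55 (7.27%), against 0.896% of all coding genes, and 20 of the 55 over the full list of peaks. Dusp1, a MAPK phosphatase, lay 22.4 kb from a peak of 119.5 near Gm34606. Atf3, a stress-induced transcription factor, lay 47.3 kb from a peak of 119 near D730003I15Rik. Klf6 had a peak of 71.8 and Fos, the AP-1 subunit, one of 64.1 at 17.8 kb inside Gm38543. Dusp6, the phosphatase named in the series title, was not the nearest gene of any member.

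Matrix and fibroblast genes gave 3 of 51 (5.88%), and 25 of the 51 over the full list of peaks. The 3 were Ccn4 (645), Thy1 (171, at 98.0 kb) and Has2 (53.0, at 69.3 kb). Calcium, channel and metabolism genes gave 3 of 55 (5.45%), and 14 of the 55 over the full list of peaks. Orai1, the store-operated calcium channel, lay 5.62 kb from a peak of 187 inside Gm2479. The potassium channel genes Kcna5 (138, at 34.4 kb) and Kcnj8 (87.6, at 16.1 kb) were the others. Of 50 markers of other cell types 1 was the nearest gene, Npnt (83.4, at 8.34 kb). That is 2.0%, against 0.896% of all coding genes, and 8 of the 50 were nearest over the full list of peaks. With so few genes per list, no order among the lists can be read from these counts. The lists were chosen with earlier results of these data known, so the shares are no independent evidence.

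The 5 kb limits cut through a continuous range of distances. Just inside the lncRNA limit lay Gm35037 (score 255, 4.98 kb) and Gm11430 (868, 4.97 kb). Just outside lay peaks near Gm40451 (83.9, 5.08 kb) and Gm41499 (113, 5.14 kb). The Gm40451 peak stood beside the member described above for Tead1. At the coding limit, the members nearest to a coding span scored 78.5 (5.01 kb) and 55.8 (5.05 kb), and the nearest peaks excluded by it scored 99.3 (4.89 kb, at Cdrt4os1) and 66.8 (4.79 kb, at Gm39344).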

How the data were processed

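Each MEF2A library came with the authors' deposited peak list, which gives coordinates, a name and a score per peak, without a header. Tools named, per the submitters' processing notes, are MACS 1.4.2, BWA 0.5.9, CASAVA 1.7.0, SAMtools and Picard. Neither IgG library was analysed here, and no source used here says whether peaks were called against them. No header states the scale of the score, so it only describes and ranks peaks within the C2C12 list. Depth is unknown, and the list says nothing of weaker sites.

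Start coordinates, 0-based in the list, are printed 1-based. Spans came from RefSeq GRCm38.p6 (21887 protein-coding and 12727 lncRNA genes on placed chromosomes), which give no exons. Distance runs between the nearer edges. Start sites, promoters and miRNAs came from RefSeq sequence tables of that assembly, which are not complete. Shares carry exact binomial 95% intervals and medians order-statistic intervals, both for counting error only. Members and lists were chosen with earlier results of these data known. The text names the 30 highest members, listed or miRNA host lncRNAs, the 15 lncRNAs with most peaks, promoter peaks, nearest listed coding genes and members at the limits; Meg3, Rian, Mirg, H19, Xist, other flanking genes, miRNAs near a peak and the motifs were chosen after values were seen. Membership and the motif search were tested on simulated data. Software was scipy 1.17.1, pandas 2.3.3 and numpy 2.4.6 under Python 3.11.15, with matplotlib 3.10.9 for plots.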

Additional observations from a re-analysis of the deposited data

How the results depend on the processing

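A score of at least 100 left 135 peaks at 135 lncRNA genes, with a median score of 178 and a median width of 276 bp, which that threshold raises by construction; 15.8% of members reached 200. Counting only overlap with a lncRNA gave 209 genes, 8.69% of all peaks, 100% inside a span and a median of 69.3 kb to coding genes. A window of 1 kb gave 9.83% of peaks and 88.4% inside, and one of 10 kb 16.3% and 53.3%. With all noncoding biotypes and pseudogenes these were 15.3% and 59.3%. Merging peaks under 1 kb apart left 0% with a close neighbour, by construction. Restricting to lncRNAs with a curated transcript, chosen after seeing the data, gave 130 peaks at 103 genes, 4.65% of all peaks, a median score of 72.3 and a median width of 134.5 bp; the cause was not tested. The other 69 values of 90, among them those with coding margins of 1 or 10 kb and, also chosen after seeing the data, without the Malat1 and Neat1 peaks, stayed within 1.5 times (counts) or within the 95% interval (shares and medians). Sequencing depth is unknown, and without replicates the recurrence of peaks near the lowest score, and the effect of leaving out a library, could not be assessed. No paired analysis was possible because only 1 library stands for a group.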

Other observations

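Some listed lncRNAs had peaks that the 5 kb distance from coding genes left out. Dnm3os, the antisense transcript inside Dnm3 that hosts miRNAs, had a peak of score 50.6 in its span and one of 171 at 226 bp from it. Zfas1, a small nucleolar RNA host gene, had a close pair of 82.5 and 153, at 141 and 361 bp from a coding span. Mir22hg, the host of Mir22, had a peak of 50.4 at 928 bp, which was 312 bp from a coding span. Other listed lncRNAs had their nearest peak outside the window: Mir99ahg, the host of a cluster related to that of Mir100hg, at 13.6 kb (score 214), and Carmn, a lncRNA of cardiac and smooth muscle, at 23.3 kb (score 216).

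Counting the coding genes on both sides of a member within 100 kb, and not only the nearest, added Tpm1 and Myom2 of the sarcomere list, Btg2 of the early response list, Col6a3 of the matrix list and Parva of the adhesion list. Their peaks scored 484, 55.2, 1582, 84.5 and 90.9, at 90.7, 14.6, 19.8, 52.7 and 71.7 kb. Scores were lower at members whose nearest lncRNA has a curated transcript, with a median of 72.3 over 122 peaks, than at the 238 peaks by model-only lncRNAs, with a median of 85.0; this difference was not tested.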
